A study of Homo sapiens with 6 samples.

Results

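The genes described here are 10 neighbours of TNFRSF11B, which encodes osteoprotegerin, on the long arm of human chromosome 8 (8q24). They are EXT1, SAMD12, MAL2, NOV, ENPP2, TAF2, DSCC1, DEPTOR, COL14A1 and MRPL13, 10 of the 57781 rows in the deposited count table. They were chosen by position and by their counts in the same 6 libraries, on the view that the stretch was lower as a block in METTL3-knocked down cells. The comparison of shMETTL3 with vector is therefore a description of these 10 genes and carries no test. The counts did not bear out a block, because 6 of the 10 genes were lower, 2 stood at the same level in both groups, and 2 were barely detected.

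RNA was sequenced from A549, a long-established line of human lung adenocarcinoma cells, to ask how depletion of METTL3 changes gene expression. METTL3 is the catalytic subunit of the complex that writes N6-methyladenosine (m6A) on mRNA. The 3 vector libraries came from control cells labelled WT, and the 3 shMETTL3 libraries from cells in which METTL3 was knocked down with short hairpin RNA. The count columns number the hairpin libraries sh1 to sh3 without saying whether the hairpins differ, and the labels do not say that the libraries came from separate cultures. The study's methods state in general that experiments were repeated independently, without naming these libraries, so that p-values measure the spread between them, which may be technical.

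Osteoprotegerin is a secreted decoy receptor that keeps RANK ligand from its receptor RANK and so restrains the formation of osteoclasts. It also binds the death ligand TRAIL and heparan sulfate. Its neighbours share a place on the chromosome rather than a pathway. They encode an enzyme of heparan sulfate synthesis, membrane and secreted proteins, a regulator of mTOR, and subunits of the machineries for transcription, DNA replication and mitochondrial translation.

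METTL3 itself had 887, 846 and 808 counts in vector replicates 1, 2 and 3 and 364, 399 and 307 counts in shMETTL3 replicates 1, 2 and 3. Scaled by TMM, vector stood at 49.9 ± 0.676 CPM, the count relative to the scaled library size (SD, n = 3), and shMETTL3 at 19.4 ± 0.525 CPM (SD, n = 3), so that 38.8% remained. In the quasi-likelihood test of edgeR, adjusted by Benjamini and Hochberg over all genes, the log2 fold change was -1.36 and the adjusted p was 4.57e-16. Some METTL3 exon sequence is shared with TOX4, which runs the other way, and no source used here says whether counting used strand. Library totals lay between 14931426 and 19108928 counts, so that 3 counts, taken as the floor, stood at 0.150 to 0.189 CPM. Pairs of libraries within a group differed by a chi-square per degree of freedom of 2.75 to 7.27, and pairs across groups by 78.0 to 98.1.

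Markers of the labelled cell type were present. All 8 listed genes of lung adenocarcinoma epithelium, among them KRT8, KRT18, EPCAM and CDH1, were above the floor in every library. Their summed level was 14923 to 15598 CPM in the vector libraries and 8599 to 8965 CPM in the shMETTL3 libraries. Within the list AKR1C1 rose by 0.21 on the log2 scale, and the rest fell, from 0.34 for ALDH3A1 to 2.73 for EPCAM. The 8 fibroblast markers summed to 6.96 to 10.1 CPM in vector and 15.4 to 16.5 CPM in shMETTL3, with 1 of the 8, COL1A2, at or under the floor throughout. Of the endothelial markers, 3 of 4 were measured, and VWF was at 0 in all 6 libraries. They summed to 0 to 0.123 CPM in vector and 1.40 to 1.95 CPM in shMETTL3, nearly all of it CDH5. Of the 5 blood cell markers 4 were at or under the floor throughout, CD3E at 0 in every library, and the 5 summed to at most 0.120 CPM in vector and 0.0998 to 0.567 CPM in shMETTL3. The part of these shifts in the values below was not tested. In bulk RNA, fewer cells of a kind and less RNA per cell cannot be told apart.

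The 10 genes span 2651 kb of GRCh37, from 118806729 to 121457642 on chromosome 8, with 4 on the plus strand and 6 on the minus strand. Of them, 8 passed the filter on low counts and were fitted, and ENPP2 and COL14A1 did not. Among these 8, 6 were called lower in shMETTL3 at an adjusted p under 0.05 and 0 higher, where 32.9% of all 15125 genes tested were called lower and 33.7% higher. The groups did not overlap for the same 6 genes, as for 69.4% of all genes tested. Nothing is read from these counts, since the members were chosen on this contrast. The median log2 fold change of the 8 was -1.30, and that of all genes tested 0.0022, but the 8 values ran from -3.85 to 0.018 and did not gather around their median.

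**Figure D1:**
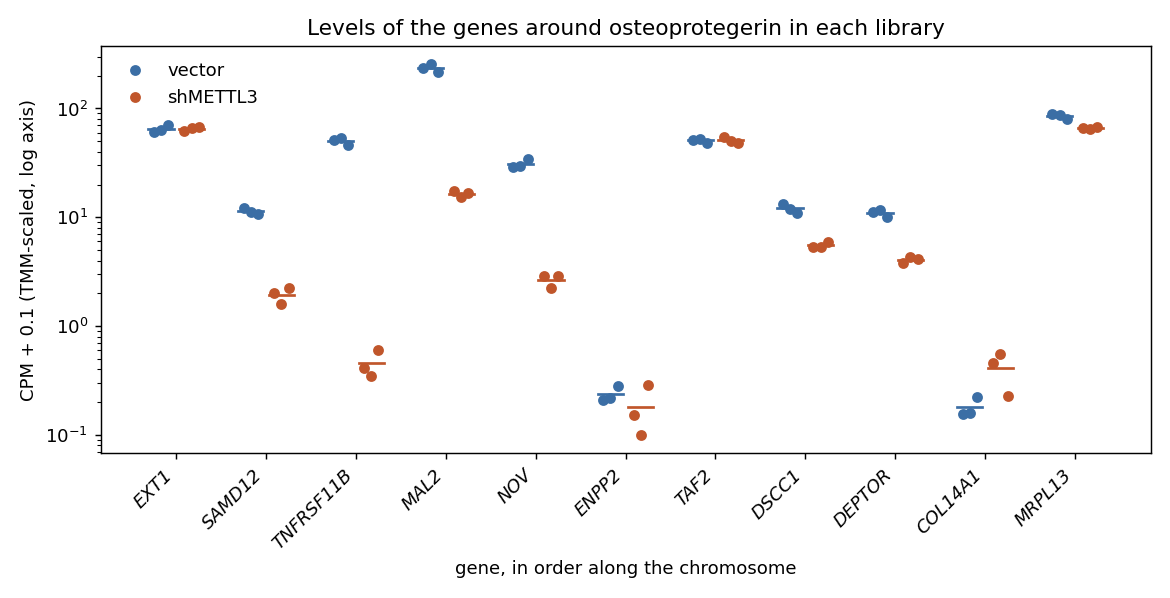
Level of each of the 10 genes and of TNFRSF11B in each library, as TMM-scaled CPM plus 0.1 on a log axis, in order along the chromosome. Points are the 3 vector and 3 shMETTL3 libraries and bars their means. SAMD12, TNFRSF11B, MAL2 and NOV fall furthest, EXT1 and TAF2 overlap between groups, and ENPP2 and COL14A1 lie near the floor.

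Within the stretch the largest falls were those of TNFRSF11B and of SAMD12, MAL2 and NOV around it. TNFRSF11B, on the minus strand from 119935796 to 119964124, had 925, 892 and 750 counts in vector and 6, 5 and 8 counts in shMETTL3. Its level went from 50.3 ± 3.86 CPM to 0.355 ± 0.133 CPM (SD, n = 3 each), so that shMETTL3 held 0.705% of the vector level.

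SAMD12, which encodes a protein with a sterile alpha motif domain, lies on the minus strand from 119201694 to 119634351. It had 216, 185 and 172 counts in vector replicates 1, 2 and 3 and 37, 30 and 34 counts in shMETTL3 replicates 1, 2 and 3. All 3 shMETTL3 libraries were far below all 3 vector libraries. The level was 11.2 ± 0.756 CPM in vector and 1.85 ± 0.327 CPM in shMETTL3 (SD, n = 3 each), 6.06-fold lower, with a log2 fold change of -2.61 (standard error 0.16).

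MAL2 encodes a membrane protein that carries cargo across polarized epithelial cells by transcytosis. The gene lies on the plus strand from 120177273 to 120257913. It had 4254, 4240 and 3545 counts in vector and 334, 309 and 262 counts in shMETTL3. Of the 10 genes MAL2 was the most abundant in vector cells and had the largest fall, from 236 ± 18.3 CPM to 16.4 ± 0.947 CPM (SD, n = 3 each). This was 14.4-fold lower, with a log2 fold change of -3.85 (standard error 0.070). Exons of MAL2 share 202 bases with MAL2-AS1 on the opposite strand. MAL2-AS1, chosen after its values were seen, had 5, 7 and 12 counts in vector and 0, 1 and 0 counts in shMETTL3 and was not tested. Those counts were far fewer than the counts of MAL2.

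NOV, now named CCN3, encodes a secreted matricellular protein of the CCN family. It lies on the plus strand from 120428686 to 120436674. It had 516, 490 and 553 counts in vector and 54, 43 and 44 counts in shMETTL3. The groups stood wide apart, at 30.7 ± 2.82 CPM and 2.57 ± 0.369 CPM (SD, n = 3 each). NOV was 11.9-fold lower, with a log2 fold change of -3.58 (standard error 0.12). An lncRNA on the opposite strand overlaps 204 of the 2614 bases of its exons, so that reads within the overlap cannot be told apart without strand. For SAMD12, MAL2 and NOV alike, shMETTL3 replicate 2 was the lowest of the 3 knockdown libraries.

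Further along the chromosome, DSCC1 and DEPTOR were lower by smaller amounts. DSCC1 is a subunit of the alternative replication factor C that loads the PCNA clamp and helps to hold sister chromatids together. It lies on the minus strand from 120846216 to 120868134 and had 238, 199 and 177 counts in vector and 101, 104 and 93 counts in shMETTL3. Its level was 12.0 ± 1.21 CPM in vector and 5.43 ± 0.375 CPM in shMETTL3 (SD, n = 3 each), or 45.2% of vector, and the log2 fold change was -1.15 (standard error 0.12).

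DEPTOR binds mTOR and inhibits both of its complexes. The gene lies on the plus strand from 120885957 to 121063157, with 201, 194 and 161 counts in vector and 71, 85 and 64 counts in shMETTL3. Every knockdown library was below every vector library, at 3.98 ± 0.284 CPM against 10.9 ± 0.911 CPM (SD, n = 3 each). This left 36.6% of the vector level, a log2 fold change of -1.45 (standard error 0.13). A further lncRNA, on the other strand, shares 252 bases with the exons of DEPTOR.

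MRPL13, a protein of the large subunit of the mitochondrial ribosome, had the smallest of the 6 falls. It lies on the minus strand from 121393000 to 121457642. The raw counts of 1591, 1460 and 1305 in vector and 1272, 1308 and 1063 in shMETTL3 overlapped, since shMETTL3 replicate 2, at 1308, was above vector replicate 3, at 1305. After scaling the groups were separate, at 85.3 ± 4.68 CPM and 66.0 ± 0.867 CPM (SD, n = 3 each). The log2 fold change was -0.37 (standard error 0.056), or 77.4% of vector.

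EXT1 and TAF2 stood at the same level in both groups within the spread of the libraries. EXT1, which with EXT2 polymerizes the heparan sulfate chain, lies on the minus strand from 118806729 to 119124065. It had 1099, 1061 and 1137 counts in vector and 1189, 1314 and 1073 counts in shMETTL3. These were 64.8 ± 4.38 CPM and 64.9 ± 3.05 CPM (SD, n = 3 each), with overlapping groups and a log2 fold change of 0.0017 (standard error 0.060). TAF2, a subunit of the general transcription factor TFIID that contacts the core promoter, lies on the minus strand from 120743014 to 120845103. Its counts were 928, 874 and 786 in vector and 1059, 1015 and 770 in shMETTL3. At 50.7 ± 2.23 CPM and 51.3 ± 3.23 CPM (SD, n = 3 each) the groups overlapped, and the log2 fold change was 0.018 (standard error 0.063). With scaling by library size alone both genes were called higher, at log2 fold changes of 0.18 and 0.19, where that scaling put the median of all genes tested at 0.18. With offsets for GC content and exon length, TAF2 was called lower, at -0.15.

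ENPP2 and COL14A1 were barely detected and were not fitted. ENPP2 encodes autotaxin, the secreted enzyme that makes lysophosphatidic acid, and lies on the minus strand from 120569326 to 120685693. It had 2, 2 and 3 counts in vector and 1, 0 and 3 counts in shMETTL3, all at or under the floor of 3 counts, so that a difference was not detectable at this depth. A processed pseudogene on the same strand overlaps 162 bases of its exons. COL14A1, a collagen that associates with the surface of collagen fibrils, lies on the plus strand from 121072019 to 121385812. It had 1, 1 and 2 counts in vector and 7, 9 and 2 counts in shMETTL3. Summed over each group these are 4 and 18 counts, a ratio of 4.15 of shMETTL3 to vector (exact 95% interval 1.37 to 16.9, for counting error only). The higher sum came from shMETTL3 replicates 1 and 2, while replicate 3 had the same 2 counts as vector replicate 3. Of the fibroblast markers given above, COL1A1, THY1 and LUM rose by 0.90, 3.65 and 0.46 on the log2 scale. PDGFRA alone of the 8 had no higher mean, at 5, 2 and 2 counts in vector and 3, 4 and 2 in shMETTL3. Whether COL14A1 moved with these markers was not tested.

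Along the chromosome the falls came in 2 runs with a gap between them. The first run, SAMD12, TNFRSF11B, MAL2 and NOV, covers 1235 kb and has log2 fold changes of -2.61, -7.16, -3.85 and -3.58. It began abruptly, since the ends of EXT1 and SAMD12 are 77.6 kb apart and the difference in log2 fold change, SAMD12 minus EXT1, was -2.61. After NOV came ENPP2, without a usable value, and then TAF2 at 0.018. TAF2 and DSCC1 are 1.11 kb apart on the same strand, and the difference, DSCC1 minus TAF2, was -1.17. DSCC1 and DEPTOR, which are transcribed away from each other with 17.8 kb between them, lay closer together, with a difference, DEPTOR minus DSCC1, of -0.30. Past COL14A1 the stretch ended with MRPL13 at -0.37.

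**Figure D2:**
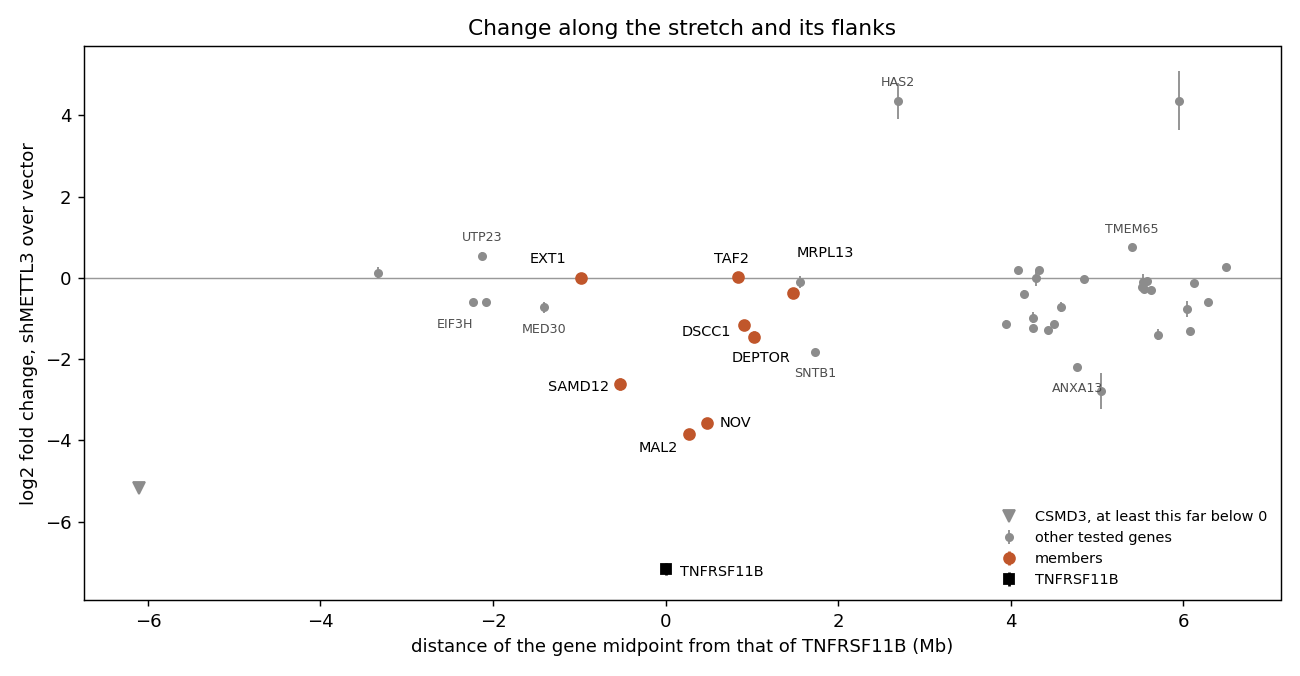
Log2 fold change of shMETTL3 over vector against the distance of each gene's midpoint from that of TNFRSF11B in Mb, for the fitted genes of the stretch and of the 5 Mb on either side. Error bars are standard errors, and the triangle for CSMD3 marks a lower limit on the size of its fall. SAMD12, MAL2 and NOV lie at -2.61 or below around TNFRSF11B, while EXT1 and TAF2 lie on the line at 0 inside the same stretch.

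Per kilobase of annotated exon, which allows only a rough comparison of levels between genes, MAL2 led in the vector libraries at 68.7 ± 5.31 CPM per kb (SD, n = 3). MRPL13 followed at 20.3 ± 1.11 and TNFRSF11B at 20.02 ± 1.54 CPM per kb, and these neighbours in the order overlapped. NOV came next at 11.7 ± 1.08, EXT1 at 6.04 ± 0.408, DSCC1 at 4.83 ± 0.486, DEPTOR at 4.15 ± 0.347 and TAF2 at 3.12 ± 0.137 CPM per kb, where only DSCC1 and DEPTOR overlapped. SAMD12 stood at 0.729 ± 0.0491 CPM per kb. The exon lengths are those of a later annotation than the table's. For every gene they pool the exons of all its transcripts, as with 15382 bases for SAMD12, 16255 for TAF2 and 4209 for MRPL13. They can exceed the length of the transcripts present, by amounts that differ between genes, so that the order in either group is approximate.

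In the shMETTL3 libraries the order was led by MRPL13 at 15.7 ± 0.206 CPM per kb, then EXT1 at 6.04 ± 0.284, MAL2 at 4.77 ± 0.275 and TAF2 at 3.16 ± 0.199 CPM per kb (SD, n = 3). DSCC1 at 2.18 ± 0.151, DEPTOR at 1.52 ± 0.108 and NOV at 0.983 ± 0.141 CPM per kb came after them, none overlapping its neighbour in the order. TNFRSF11B and SAMD12 closed the fitted genes at 0.141 ± 0.0529 and 0.120 ± 0.0213 CPM per kb, and overlapped. The size of the fall did not follow this approximate level in vector cells. The most and the least abundant of the 8 fitted genes per kilobase, MAL2 and SAMD12, had the largest and the third largest falls.

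The 10 genes together gave 502 ± 20.3 CPM in vector and 213 ± 2.26 CPM in shMETTL3 (SD, n = 3 each). Most of the difference was MAL2, which supplied 45.2% to 48.7% of the sum in the vector libraries and 7.33% to 8.10% in the shMETTL3 libraries. Replicates agreed closely. Over the 8 fitted genes the coefficient of variation of the CPM values within vector was 4.40% to 10.1%, and within shMETTL3 1.31% to 17.7%, with SAMD12 the most variable in shMETTL3.

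Genes that the rule did not list can show how far the lower values extended. Of 11 further annotated genes that overlap the stretch and matched a row of the table, 2 were tested, TNFRSF11B and MTBP. MTBP reaches into the stretch by only the 3 bases it shares with MRPL13, head to head, and otherwise lies above it, so that TNFRSF11B was the only other tested gene within the stretch. MTBP encodes a partner of MDM2 with a role in replication origin firing. It had 104, 112 and 82 counts in vector and 124, 89 and 88 counts in shMETTL3. The groups overlapped and MTBP was not called, with a log2 fold change of -0.099 (standard error 0.15, adjusted p = 0.584 by edgeR).

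In the 5 Mb below EXT1, 6 genes were tested, of which 4 were lower, 1 higher and 1 was not called. The lower share of 66.7% stands beside the 32.9% of all genes. MED30, a subunit of the Mediator complex and the nearest tested gene to EXT1, had 148, 133 and 121 counts in vector and 102, 93 and 68 in shMETTL3, with a log2 fold change of -0.73 (adjusted p = 3.04e-05). RAD21, a cohesin subunit, and EIF3H, a translation initiation factor, had log2 fold changes of -0.58 and -0.60 (adjusted p = 1.13e-10 and 3.66e-11). Between them UTP23, which acts in ribosome assembly, rose from 336, 301 and 233 counts in vector to 493, 505 and 377 in shMETTL3, with a log2 fold change of 0.54 (adjusted p = 5.1e-06). TRPS1, a GATA-type repressor, was not called, at 0.12 (adjusted p = 0.415), and was called higher with scaling by library size alone. At the far end CSMD3, which encodes a large membrane protein, had 111, 96 and 95 counts in vector and 0 in each shMETTL3 library. It was at least 35.9-fold lower against a floor of 3 counts per library. The gene spans of EIF3H, UTP23 and RAD21 overlap at their ends, and how reads that match both neighbours were counted is not known here. These p-values are those of the same edgeR fit.

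In the 5 Mb above MRPL13, where the nearest tested gene was the uncalled MTBP, 28 genes were tested beside it, with 17 lower, 6 higher and 5 not called, a lower share of 60.7%. The next after MTBP, SNTB1, encodes a syntrophin that anchors membrane proteins to the dystrophin complex. It had 723, 600 and 649 counts in vector and 222, 213 and 166 in shMETTL3, with no overlap. The log2 fold change was -1.83 (adjusted p = 4.22e-17 by edgeR). Its neighbour HAS2, a hyaluronan synthase, went the other way. HAS2 had 3, 1 and 3 counts in vector and 57, 38 and 66 counts in shMETTL3, or 7 and 161 summed over each group, a ratio of 21.2 (exact 95% interval 10.1 to 53.6, for counting error only).

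Large falls returned further out. ANXA13, an epithelial annexin, fell by 2.19 on the log2 scale, from 1887, 1737 and 1565 counts in vector to 420, 459 and 352 in shMETTL3 (adjusted p = 2.43e-21 by edgeR). MTSS1, which binds actin at membranes, fell by 1.40, SQLE, the squalene epoxidase of cholesterol synthesis, by 1.31. ATAD2, a chromatin ATPase, had a log2 fold change of -1.27 and FAM83A of -1.23. ZHX2 and WDYHV1 were at 45.3% and 45.6% of the vector level. FBXO32, ZNF572 and NSMCE2 fell by 0.72, 0.77 and 0.59, and TBC1D31 by 0.39. FER1L6 had 26, 25 and 21 counts in vector against 2, 7 and 2 in shMETTL3, a log2 fold change of -2.79. The small falls of NDUFB9, RNF139 and TRMT12, of 0.30, 0.26 and 0.22, were not called with scaling by library size alone. The genes that rose, beside HAS2, were TMEM65 at 0.76, TRIB1 at 0.27, and ZHX1 and DERL1 at 0.19 each, and 2 lncRNAs, FAM83A-AS1 and LINC00964, were called lower and higher. FAM83A-AS1 lies within the span of FAM83A on the other strand. With scaling by library size alone the counts above MRPL13 were 14 lower and 6 higher, and those below EXT1 4 lower and 2 higher.

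Chromosome 8 as a whole leaned the same way. Without the 10 genes and TNFRSF11B, 491 of its genes were tested, of which 241 or 49.1% were lower and 99 or 20.2% higher, with a median log2 fold change of -0.22. The medians of the other 21 numbered chromosomes lay between -0.18 and 0.16. Copy number was not measured, and no test of the chromosome against the others was made.

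The partners of these genes were then followed by lists of genes that act in the same pathway or complex, most of them on other chromosomes. Over all lists 122 genes were named and 106 tested, with 48 or 45.3% lower and 33 or 31.1% higher, beside 32.9% and 33.7% of all genes. Scaled by library size alone, 30 of these 106 genes were lower and 43 higher, and that scaling gave 23.2% of all genes lower and 44.6% higher around a median of 0.18. Counts of a list under that scaling are to be read against these. Adjusted p-values of partners come from the same edgeR fit.

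Among the partners of osteoprotegerin, 3 of 4 tested genes were higher and 1 lower. TNFRSF11A, which encodes RANK, had 32, 42 and 46 counts in vector and 115, 161 and 113 in shMETTL3, a log2 fold change of 1.57 (adjusted p = 1.11e-08). TNFSF10, which encodes TRAIL, had 27, 16 and 15 counts against 124, 98 and 102, a log2 fold change of 2.37 (adjusted p = 1.81e-10). SDC4, a heparan sulfate proteoglycan of the cell surface, rose by 1.32 on the log2 scale. SDC1 fell by 0.18, and was not called with scaling by library size alone. TNFSF11, the RANK ligand gene, had at most 5 counts in any library and was not tested.

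The heparan sulfate enzymes did not move together, with 4 of 9 lower and 4 higher, a split that became 2 lower and 5 higher with scaling by library size alone. EXT2, the partner of EXT1 in the copolymerase, rose from 94.6 ± 0.949 CPM in vector to 142 ± 2.94 CPM in shMETTL3 (SD, n = 3 each), a log2 fold change of 0.59 (adjusted p = 6.02e-11), while EXT1 stood at 0.0017. HS2ST1, a 2-O-sulfotransferase, was higher by 0.50 on the log2 scale. HS6ST2, a 6-O-sulfotransferase, had 107, 102 and 57 counts in vector and 13, 4 and 10 in shMETTL3, a log2 fold change of -3.39 (adjusted p = 1.17e-10).

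The list for MAL2 held relatives in the MAL family and other proteins with a MARVEL domain, and 2 of its 4 tested genes were lower and 0 higher, as under each of the 4 scalings tried. Of the MAL family proper, PLLP, which encodes plasmolipin, fell by 0.70 on the log2 scale (adjusted p = 6.44e-07), while MALL, at -0.0026, was not called. Of the other MARVEL proteins, MARVELD1 fell by 1.47 (adjusted p = 2.19e-18) and CMTM8, at -0.26, was not called. MAL itself had 1 count in all libraries together.

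The relatives of NOV went against it. All 3 tested members of the CCN family other than NOV were higher, under each of the 4 scalings. WISP2 rose from 707, 742 and 752 counts in vector to 3630, 3803 and 2982 in shMETTL3, a log2 fold change of 2.12 (adjusted p = 1.32e-21). CTGF and CYR61, which encode CCN2 and CCN1, rose by 0.67 and 0.54 on the log2 scale. WISP1 had 2 counts in all libraries together and was not tested.

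Genes of lysophosphatidic acid signalling, the pathway of autotaxin, were higher in 4 of 6 cases and lower in 2. PLPP3, a phosphatase that degrades the lipid, had a log2 fold change of 1.77 and the receptor LPAR6 of 0.89, against -1.50 for the receptor LPAR2 (adjusted p = 2.97e-16, 1.58e-05 and 1.29e-07). Of 9 listed collagens related to COL14A1, 5 were tested, and all 5 were higher. That count is partly set by the filter on low counts, which COL20A1, COL16A1 and COL21A1 passed through their shMETTL3 libraries. COL20A1 had 5, 3 and 5 counts in vector and 73, 81 and 72 in shMETTL3, and COL16A1 had 11, 8 and 7 against 112, 122 and 88, with log2 fold changes of 3.97 and 3.49 (adjusted p = 4.14e-12 and 3.21e-13). COL21A1, at 3.52, was as large but rested on 4, 2 and 4 vector counts.

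The partners of DSCC1 were all lower, 6 of 6 tested. CHTF18, the large subunit of the same clamp loader, had 186, 178 and 208 counts in vector and 100, 85 and 78 in shMETTL3, a log2 fold change of -1.24 (adjusted p = 3.48e-09), close to the -1.15 of DSCC1. The other 5 lay between -0.46 for RFC3 and -0.26 for RFC2, with RFC5 at -0.38, and RFC2 and RFC4 were not called with scaling by library size alone.

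Around DEPTOR, the 8 mTOR complex genes split into 3 lower, 3 higher and 2 not called, or 3 lower and 4 higher with scaling by library size alone. MTOR itself was not called, at -0.12. PRR5, a subunit of the second complex, fell by 1.03 on the log2 scale, and its paralog PRR5L and MAPKAP1 were higher by 0.67 and 0.57. Of the other 13 TFIID subunits, 4 were lower and 5 higher under TMM, and 0 lower and 6 higher with scaling by library size alone. TAF10, TAF1 and TAF13 had the largest changes of those called without overlap, at 0.85, 0.78 and 0.74, against 0.018 for TAF2.

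Of the 48 other genes of the mitochondrial large ribosomal subunit, 26 were lower and 6 higher, with a median log2 fold change of -0.17, beside the -0.37 of MRPL13. Scaling by library size alone gave 17 lower, or 35.4%, and 13 higher, with a median of 0.0065, beside a median of all genes of 0.18 and 23.2% of them lower. MRPL23, MRPL12 and MRPL11 had the largest changes of those called without overlap, at -0.92, -0.81 and -0.56 (adjusted p = 5e-12, 4.41e-05 and 5.95e-09).

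**Figure D3:**
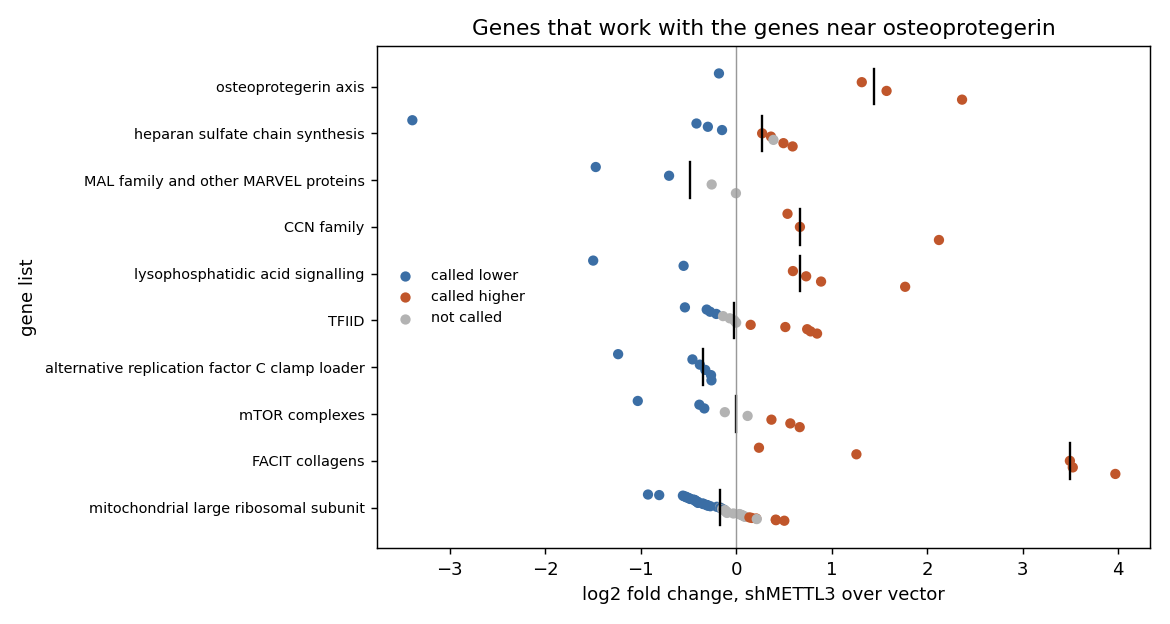
Log2 fold change of shMETTL3 over vector for each tested gene of the 10 lists of partners, coloured by its call from edgeR, with a vertical bar at the median of each list. The collagens related to COL14A1 (FACIT, fibril-associated) and the CCN family lie right of 0, the clamp loader and the MAL and MARVEL list left of it or at it, and the other 6 lists on both sides.

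The genes whose pattern was most like the mean of the 8 fitted neighbours over the 6 libraries were POP1, on chromosome 8, NR4A2 and CCNB1, with Pearson correlations of 0.9998, 0.9997 and 0.9997 over 6 libraries and log2 fold changes of -1.06, -2.21 and -1.15. The 6 libraries form 2 groups, and 649 of the 11069 genes compared had a correlation over 0.99, so that a high value here mostly restates the group difference.

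The order of the fitted genes' falls changed little with the processing. Over 15 alternatives the log2 fold change of SAMD12 ran from -2.75 to -2.44, that of MAL2 from -3.98 to -3.67 and that of NOV from -3.65 to -3.40. DSCC1 ran from -1.26 to -0.98, DEPTOR from -1.52 to -1.28 and MRPL13 from -0.55 to -0.20. EXT1 and TAF2 stayed within 0.2 of 0.

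**Figure D4:**
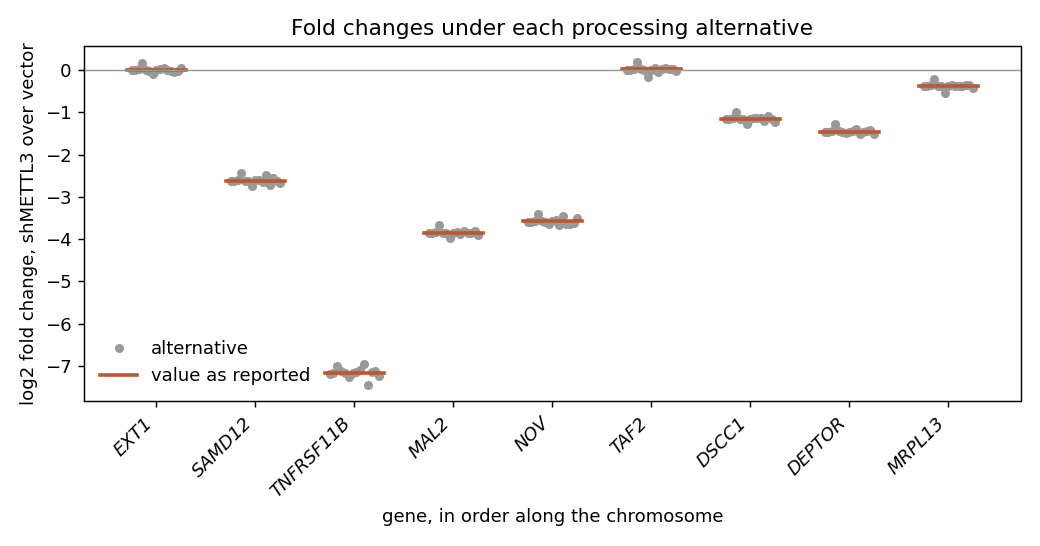
Log2 fold change of each fitted gene and of TNFRSF11B as reported (bar) and under each processing alternative (points). The 6 lower genes stay below 0, and EXT1 and TAF2 lie on both sides of it.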

How the data were processed

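The authors deposited whole-number counts per gene and library, without normalization, for 57781 rows named by gene symbol. Reads had been mapped to hg19 with HISAT2 and counted with HTSeq. The paper gives HISAT2 2.1.0 and htseq 0.11.2, the submitters' processing notes HISAT2 2.2.1 and HTSeq 0.13.5, and the annotation and strand setting are not given in the sources used here. Groups and replicate numbers came from the sample titles, and 0 columns were left unused. Library totals were 14931426 to 19108928 counts, which limits single-library values near 3 counts.

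Counts were tested in R 4.3.3 with edgeR 4.0.16 (TMM, filterByExpr, glmQLFit, glmQLFTest, group only) and Benjamini-Hochberg adjustment over 15125 genes. Standard errors were obtained by dividing unshrunk coefficients by the root of F. A gene was called at an adjusted p under 0.05. The paper used DESeq2, tried here as an alternative (1.42.0), beside limma-voom (limma 3.58.1), other scalings and filters, a replicate block, offsets for GC content and exon length, and each library left out. The edgeR, DESeq2 and limma-voom group comparisons were tested on simulated counts, and the other alternatives were not.

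Positions came from GENCODE 44 lifted to GRCh37, the build called hg19, and 92.1% of tested genes had one. Flanks were 5 Mb wide. The genes named are the 10 members, TNFRSF11B, METTL3, tested protein-coding neighbours that were called or lay nearest, the 3 largest non-overlapping changes of each partner list, and the 3 genes most like the members. Named outside that rule, after their values were seen, are TOX4, TRPS1, MAL2-AS1, FAM83A-AS1, LINC00964, SDC1, MALL, CMTM8, MTOR, RFC2, RFC4, the untested TNFSF11, MAL and WISP1, and single cell type markers. MTBP, which overlaps the stretch by 3 bases, was left out of the flank counts. Members and lists were chosen with earlier results of these data known. The 27 rows with date-like names were kept in the fit and none is named. No sequence is shown for this region.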

Additional observations from a re-analysis of the deposited data

How the results depend on the processing

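The 6 lower members and METTL3 stayed lower and called in all 15 refits, and METTL3 ran from -1.47 to -1.19. EXT1 changed sign, without being called, with DESeq2 (-0.0017), RLE scaling (-0.0018), no filter on low counts (-0.011) and offsets for GC content and exon length (-0.10), and with 1 library left out lay between -0.045 and 0.050. TAF2 changed sign with those offsets, where it was called lower (-0.15, adjusted p = 0.00997 from edgeR), and ran from -0.031 to 0.054 with 1 library left out. The median of the fitted members was -1.13 with scaling by library size alone, -1.38 with the offsets and -1.01 without a filter, which adds ENPP2 and COL14A1. It ran from -1.37 to -1.26 with 1 library left out.

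A minimum absolute log2 fold change of 1 left 2668 changed genes of 10067, 5 of 6 lower members, 1 of 4 lower genes in the flank below EXT1, 9 of 17 in the flank above MRPL13 and 14 of 81 called partner genes. With flanks of 2 Mb, 3 of 4 tested genes were lower below EXT1 and 1 of 2 above MRPL13. Of the genes other than members that overlap the stretch, 0 were called lower with at least 10 counts in every library, which removes TNFRSF11B, and 2 without a filter. Scaling by library size alone gave 65.8% of changed genes higher and the offsets 43.5%, against 50.6% under TMM. Deviations of same-numbered libraries correlated at 0.052, -0.0066 and 0.033, and those of other pairs across groups at -0.061 to 0.026. Vector replicates 1 and 3 correlated best with the shMETTL3 library of the same number, and vector replicate 2 with shMETTL3 replicate 1. Values this weak do not settle whether the numbers pair the libraries. The replicate block gave 10111 changed genes, 6 lower members and a member median of -1.30. Depth leaves ENPP2 and COL14A1 without a usable fold.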

Other observations

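Chromosome 8 leaned toward lower levels over much of its length, with exceptions. In windows of 10 Mb counted from osteoprotegerin, without the 10 members and TNFRSF11B, 11 of the 12 windows with at least 20 tested genes had a median log2 fold change below 0, and the medians of these 12 ran from -0.40 to 0.063. These are values under TMM, some of them close to 0. Scaling by library size alone put the median of all genes tested at 0.18, and the windows were not recomputed with it. The window reaching 10 Mb above TNFRSF11B, which holds the upper flank, had a median of -0.39, with 22 of 35 genes lower and 7 higher. The next window, from 10 to 20 Mb, went the other way, with a median of 0.46 over only 11 genes, 2 lower and 7 higher. From 20 to 30 Mb the median was -0.40, with 47 of 85 genes lower and 5 higher. The window reaching 10 Mb below TNFRSF11B also held only 11 genes, 5 lower and 2 higher, with a median of -0.067. At the far end of the chromosome, 110 to 120 Mb below TNFRSF11B, the median was -0.25 over 19 genes.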
